A study of Mus musculus with 388 samples.

Results

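The genes described here are 9 members of the inflammatory response that runs through the transcription factor NF-kB: the CC chemokine genes Ccl2 and Ccl7, the cytokine gene Il6, the prostaglandin synthase gene Ptgs2, the feedback inhibitor genes Tnfaip3 and Nfkbia, the subunit gene Nfkb1, the adhesion molecule gene Icam1 and the early response gene Ier3. They were taken by symbol from a table of 25000 genes, of which 16143 had a count in a kept cell, and 9 of 9 were present. They are described across 388 samples, each of which is 1 mouse bone marrow cell. All cells came from the bone marrow of C57BL/6 mice aged 2 months that carried KitMerCreMer, a Cre recombinase made active by tamoxifen under the control of the Kit locus, and R26tdTomato, a Cre-activated red fluorescent reporter. Every mouse had been exposed to tamoxifen before birth, at E12.5 and E14.5 (embryonic days), so both groups share alleles and treatment. The sort gate was CD45-, Ter119-, CD31- and PDGFRα+, which selects stromal cells and removes blood and endothelial cells. Tomato+ cells showed red fluorescence and Tomato- cells did not; absence of red fluorescence does not show that a cell's precursors lacked Kit.

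The labels name no animal or pool of animals for a cell, so each group counts as 1 sample, no test between groups was made, and cells are given as cells and not as replicates. Sample titles give 2 orders and 8 sets, which are the only subdivisions available. In order 1, the Tomato+ sets P1, P2 and P3 hold 94, 5 and 40 cells and the Tomato- set N2 holds 60. In order 2, the Tomato+ sets P1 and P2 hold 24 cells each and the Tomato- sets N1 and N2 hold 71 and 70. The sources used here do not explain what an order or a set stands for. After leaving out 2 shallow cells of order 1 set P3, 386 cells were kept. Totals per cell ran from 4014 to 3833473 counts over all 388 cells, with a median of 678586. Lepr, the leptin receptor that marks perisinusoidal marrow stroma, had a count in every kept cell. That share does not identify stromal cells, since cells with Ptprc counts, given below, held Lepr counts too. A Lepr count at or above 1% of the highest in its library pool was less general. It was present in 86.1% of Tomato+ and 65% of Tomato- cells of order 1. In order 2 it was present in 97.9% and 90.1%. All 20 genes of a marrow stroma marker list had counts in both groups and orders. The summed level of that list was 78172 CPM (read counts scaled to the same library size) in Tomato+ and 51947 CPM in Tomato- cells of order 1, and 92188 and 81119 CPM in order 2. Pdgfra, the gene of the gated surface protein, stood at 312 CPM in Tomato+ and 396 CPM in Tomato- cells. Ptprc, which encodes CD45, was at 0 counts in both groups of order 1, and 12 cells, all Tomato- of order 2, held 5 or more of its counts.

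As background, NF-kB dimers are held in the cytoplasm by inhibitory IkB proteins. Signals from cytokine or pattern receptors lead to phosphorylation and breakdown of the inhibitor, and the freed dimer enters the nucleus and switches on target genes. The targets include the genes of the inhibitors themselves, which closes a feedback loop, and genes for chemokines that draw monocytes. Marrow stromal cells are a known source of CCL2, which guides monocyte exit from the marrow.

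The sequences upstream of 4 members are shown first. The members are described together, and the start regions of these 4 hold letters that match known NF-kB sites. RefSeq start regions on GRCm38.p6 matched 6 of 9 members; Ccl2, Ccl7 and Nfkb1 are named only. Each sequence below reads 5′ to 3′ on the gene's strand and ends at the base before the annotated start, except Ier3, which stops where an annotated exon begins. Capitals mark matches to the kappaB consensus or to the 9 bases GGAAATTCC on either strand.
Il6, chr5:30012864-30013113, plus strand: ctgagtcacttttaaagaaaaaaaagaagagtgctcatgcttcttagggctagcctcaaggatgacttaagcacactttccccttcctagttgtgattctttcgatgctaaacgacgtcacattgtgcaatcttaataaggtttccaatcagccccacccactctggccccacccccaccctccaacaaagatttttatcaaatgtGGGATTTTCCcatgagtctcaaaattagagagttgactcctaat
Icam1, chr9:21015690-21015939, plus strand: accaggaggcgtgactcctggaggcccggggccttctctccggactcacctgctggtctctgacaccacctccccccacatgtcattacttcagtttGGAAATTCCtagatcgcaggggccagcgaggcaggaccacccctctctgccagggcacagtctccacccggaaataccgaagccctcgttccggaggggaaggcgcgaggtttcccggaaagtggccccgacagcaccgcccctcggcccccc
Nfkbia, chr12:55492648-55492897, minus strand: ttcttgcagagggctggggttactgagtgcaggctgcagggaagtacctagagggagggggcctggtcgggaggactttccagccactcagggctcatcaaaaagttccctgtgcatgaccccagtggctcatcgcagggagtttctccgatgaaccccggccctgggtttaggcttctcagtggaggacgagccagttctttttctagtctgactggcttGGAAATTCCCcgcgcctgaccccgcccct
Ier3, chr17:35821463-35821683, plus strand: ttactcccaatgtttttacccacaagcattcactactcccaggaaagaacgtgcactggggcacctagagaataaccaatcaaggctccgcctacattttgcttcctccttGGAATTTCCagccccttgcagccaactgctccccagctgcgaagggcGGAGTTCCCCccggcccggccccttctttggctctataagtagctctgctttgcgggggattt
The kappaB consensus, searched on both strands of the 250 bases before the start, was found in 3.90% of 32851 promoters of the same length, and the 9 bases in 0.286%. Il6 matched the consensus from base -44 to base -35, and Ier3 from -92 to -83. Nfkbia matched it from -29 to -20, which overlaps its match to the 9 bases. Tnfaip3 matched it at 2 places, in a window where an annotated exon begins after 3 bases. That window also held the 9 bases from -24 to -16. Another annotated start of Tnfaip3, whose 250 bases overlap no annotated exon, had no match to the consensus or to the 9 bases. Ptgs2, whose window has 0 bases before an annotated exon, had no match to the consensus or to the 9 bases. Icam1 held the 9 bases from -153 to -145 and Ier3 from -139 to -131. Il6 also held TTGTGCAAT, a C/EBP type site found in 0.167% of promoters, from -128 to -120. These are matches of letters and show neither binding nor use in these cells.

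Levels between genes were compared per kilobase of annotated exon, over the 8 title sets. Ccl2, which encodes the monocyte attractant CCL2 (chromosome 11, bases 82035571 to 82037453 on GRCm38), was the most abundant member, with a median of 3994 CPM per kb and a range of 2475 to 5180. It exceeded Nfkbia, the next member by median, in 8 of 8 sets. Nfkbia followed at 952 CPM per kb, Ccl7 at 861 and Ier3 at 735, and each was above the next in only 4 of 8 sets, except Ier3, which was above Il6 in 8 of 8. Il6 at 97.5 CPM per kb and Icam1 at 93.1 were also not ordered, with 4 of 8 sets each way. Icam1 exceeded Tnfaip3 (44.5 CPM per kb) and Tnfaip3 exceeded Nfkb1 (4.73 CPM per kb) in 8 of 8 sets. Nfkb1 and Ptgs2 (3.71 CPM per kb) were ordered in 5 of 8 sets. The 3' or 5' bias of the amplified RNA is unknown, so a per-kilobase level is approximate.

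**Figure D1:**
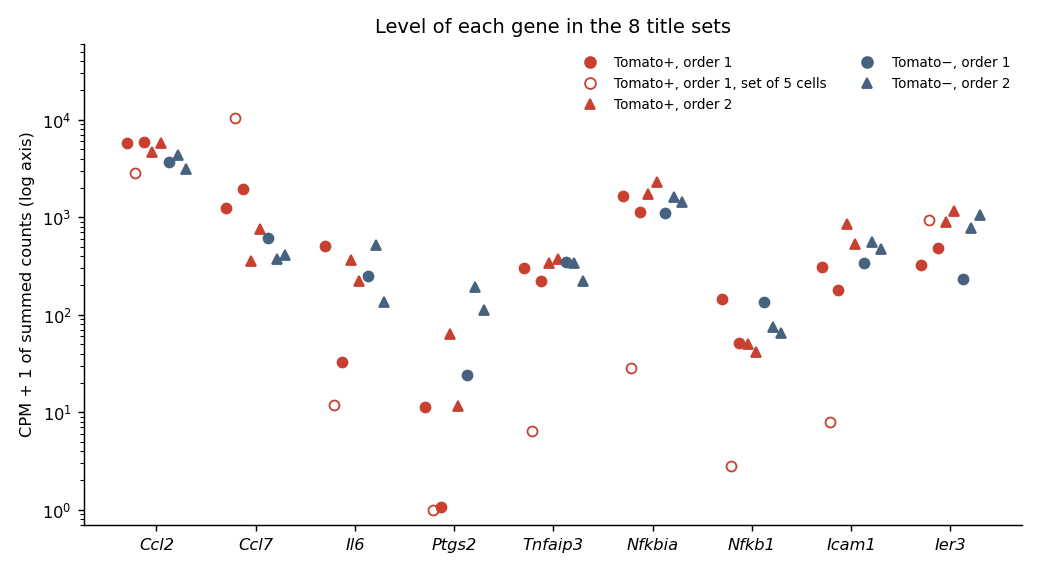
Level of each of the 9 genes in the 8 title sets, as CPM + 1 of the counts summed over the cells of a set (log axis). Colour gives the group, circles order 1, triangles order 2, and the open circle the Tomato+ set of 5 cells; the Ccl2 sets lie between 2817 and 5895 CPM, while the Ptgs2 sets run from 0 to 192.4 CPM.

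Kit-lineage (Tomato+) cells held more Ccl7 and less Ptgs2 than the other stromal cells in the sums of both orders, and their Ccl2 and Nfkbia levels were also on the higher side, by less than 1.5-fold in at least 1 order. The log2 ratio of Nfkbia in order 1 turned to -0.11 without Tomato+ set P1. That of Ccl7 in order 2 turned to -0.12 without Tomato+ set P2. The Ptgs2 difference of order 1 came from 1 Tomato- cell. Without the top cell of each group and order neither Ccl7 nor Ptgs2 was called. Il6, Tnfaip3 and Icam1 had ratios of opposite sign in the orders, though not under every setting. For these values, counts were summed over the cells of each group within each order. A gene was called when Tomato+ and Tomato- differed by more than 1.5-fold in the same direction in both orders, where the higher group had to reach 20 CPM in each order and to show a count in 20% of its cells, taken over both orders together. For Ptgs2 that share was 39.3% of Tomato- cells, but 13.3% of those of order 1. Ccl7 was the 1 member called higher in Tomato+ cells and Ptgs2 the 1 member called lower. Among all 5865 genes tested, 2.81% were called higher and 3.99% lower, 6.8% in either direction. The median of the mean log2 ratio over the 9 members was 0.27, beside 0.015 over all genes tested. That median was -0.19 without Tomato+ set P1 of order 1, beside -0.047 over all genes tested. Without Tomato- set N2 of order 2 it was -0.014, beside 0.030. With the mean of per-cell CPM it was 0.19, beside 0.15. The sign of the ratio was the same in both orders for 6 of 9 members, beside 52.9% of all genes tested. In order 1 alone 4 members were over 1.5-fold higher in Tomato+ cells and 1 lower, where all genes gave 26.9% and 23.7%. In order 2 alone 1 member was higher and 2 were lower, where all genes gave 9.22% and 12.9%. Other measures moved with the groups. In order 1 the marrow stroma list was lower in Tomato- cells, as given above, and among cells with Lepr at or above 1% of the highest Lepr count in their library pool the mean log2 ratios were 0.54 for Ccl2, 0.80 for Ccl7 and 0.45 for Nfkbia, with 0 members called. In order 2 the summed level of a list of 15 myeloid markers was 15565 CPM in Tomato- and 122.2 CPM in Tomato+ cells. The summed level of a list of 14 endothelial markers was higher in Tomato+ cells in both orders. It was 463 and 111.5 CPM (Tomato+ and Tomato-) in order 1 and 482 and 142.8 CPM in order 2. The median cells differed less, at 8.395 and 5.013 CPM in order 1 and 52.3 and 51.1 CPM in order 2. The highest cells held 16519 and 1848 CPM of the endothelial list in order 1, and 18603 and 2157 CPM in order 2. The calls of Ccl7 and Ptgs2 were also made without the cells that held 5 or more counts of Ptprc or Pecam1. What part these lists had in the ratios was otherwise not tested.

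Among the chemokines, Ccl7 encodes CCL7, a monocyte attractant closely related to CCL2, whose gene starts 8258 bases beyond the end of Ccl2. In order 1 it stood at 1579 CPM in Tomato+ and 615 CPM in Tomato- cells, a log2 ratio of 1.36. In order 2 it stood at 591 and 391 CPM, a log2 ratio of 0.59 that passes the 1.5-fold limit (1.51-fold) by little. The title sets overlapped between groups: the Tomato+ sets ran from 359 to 10516 CPM and the Tomato- sets from 371 to 615 CPM. The highest value comes from the Tomato+ set of 5 cells in order 1, where 1 cell with 128117 CPM held 99.6% of the set's Ccl7 counts. Over single cells the orders disagreed. In order 1 the median cell had 82.9 CPM in Tomato+ and 35.7 CPM in Tomato- cells, with 100 CPM or more in 47.4% of Tomato+ cells and in 18 of 60 Tomato- cells. In order 2 the median was 8.65 CPM in Tomato+ and 71.3 CPM in Tomato- cells, with 100 CPM or more in 31.25% and 43.97%. The higher Tomato+ sum of order 2 thus came from a few cells of high level, of which 1 held 27.4% of the counts. Without the top cell of each group and order, Ccl7 kept its direction (log2 ratios of 1.76 and 0.33) but was no longer called. The call was also lost without Tomato- set N1 of order 2, at a log2 ratio of 0.54, and without Tomato+ set P2 of order 2, where the direction turned (-0.12). Between the order 2 sets numbered 1 alone, the log2 ratio was -0.05, and between those numbered 2 it was 0.91.

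Order 1 Tomato+ cells held 5791 CPM of Ccl2 and Tomato- cells 3693 CPM; the order 2 values were 5295 and 3675 CPM. The log2 ratios were 0.65 and 0.53, and Ccl2 missed the rule in order 2 with 1.44-fold. The 4 larger Tomato+ sets (4716 to 5895 CPM) all stood above the 3 Tomato- sets (3117, 3693 and 4375 CPM), while the Tomato+ set of 5 cells was lowest of all at 2817 CPM. Over all genes tested, 0.153% had all 5 Tomato+ sets above the 3 Tomato- sets and 1.96% had them all below. Ccl2 misses the first condition through that set. The share of all genes with only the 4 larger Tomato+ sets above was not computed, so 0.153% does not apply to Ccl2. Over all settings tried, the mean log2 ratio of Ccl2 stayed between 0.46 and 0.73. Counts were uneven over cells: the tenth of cells with the most Ccl2 counts held 59.1% of them in Tomato+ and 58.5% in Tomato- cells. Per-cell levels ran from 2.42 to 162327 CPM in Tomato+ cells, with a median of 626, and from 13.1 to 53010 CPM in Tomato- cells, with a median of 726. These pooled medians mix the orders, which hold the groups in unlike proportions. Within order 1 the median cell had 550 CPM in Tomato+ and 283 CPM in Tomato- cells. Within order 2 the medians were 1316 and 1028 CPM, ordered as the sums are. The title sets did not all share that order. In order 1 the median was 1752 CPM in Tomato+ set P1, but 74.1 CPM in P2 and 86.2 CPM in P3. In order 2 the medians were 1929 and 970 CPM in Tomato+ sets P1 and P2. They were 1744 and 721 CPM in Tomato- sets N1 and N2. In the highest cell, of order 1 set P3, 91647 of 564583 counts were Ccl2; it held 0 counts of Ptprc and Pecam1 and 919 CPM of Lepr. That cell gives 61.3% of its set's Ccl2, and set P3 stood at 2330 CPM without it.

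A count of Ccl2 was present in 386 of 386 kept cells, but that share carries no information on expression. The 12 cells with 5 or more Ptprc counts, at a median depth of 853830 counts, also all held Ccl2 counts, at a median of 56.4 CPM. The 307 cells with 0 counts of Ptprc and Pecam1 had a median of 757 CPM at a median depth of 669560 counts. At 100 CPM or more, the shares were 41.7% and 77.2%. For Icam1 and Il6 the same threshold was reached in 0 of the 12 Ptprc cells, and in 52.1% and 18.9% of the 307 others. For Ccl7 the shares were 8.33% and 43.6%. Other members differed less: Nfkbia reached the threshold in 75% of the Ptprc cells and 84.04% of the 307, and Ier3 in 50% and 60.9%. Tnfaip3 reached it in 33.3% and 43.3%, and Nfkb1 in 16.7% and 23.8%. The 12 cells were all Tomato- cells of order 2, while the 307 came from both groups and orders. When counts below 1% of the highest count of the gene in the same library pool were set to 0, Ccl2 remained in 57.3% of Tomato+ and 54.2% of Tomato- cells. Cells with 5 or more Ptprc counts held 0.10% of all Ccl2 counts against 3.63% of the counts of all genes, and cells with 5 or more of Pecam1, which encodes the endothelial marker CD31, held 2.09% against 8.13%. The Pecam1 cells held 8.75% of Nfkb1, 8.59% of Icam1 and 8.64% of Ier3 counts, near their share of all genes, whereas the Ptprc cells held 1.64%, 0.12% and 1.47%.

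**Figure D2:**
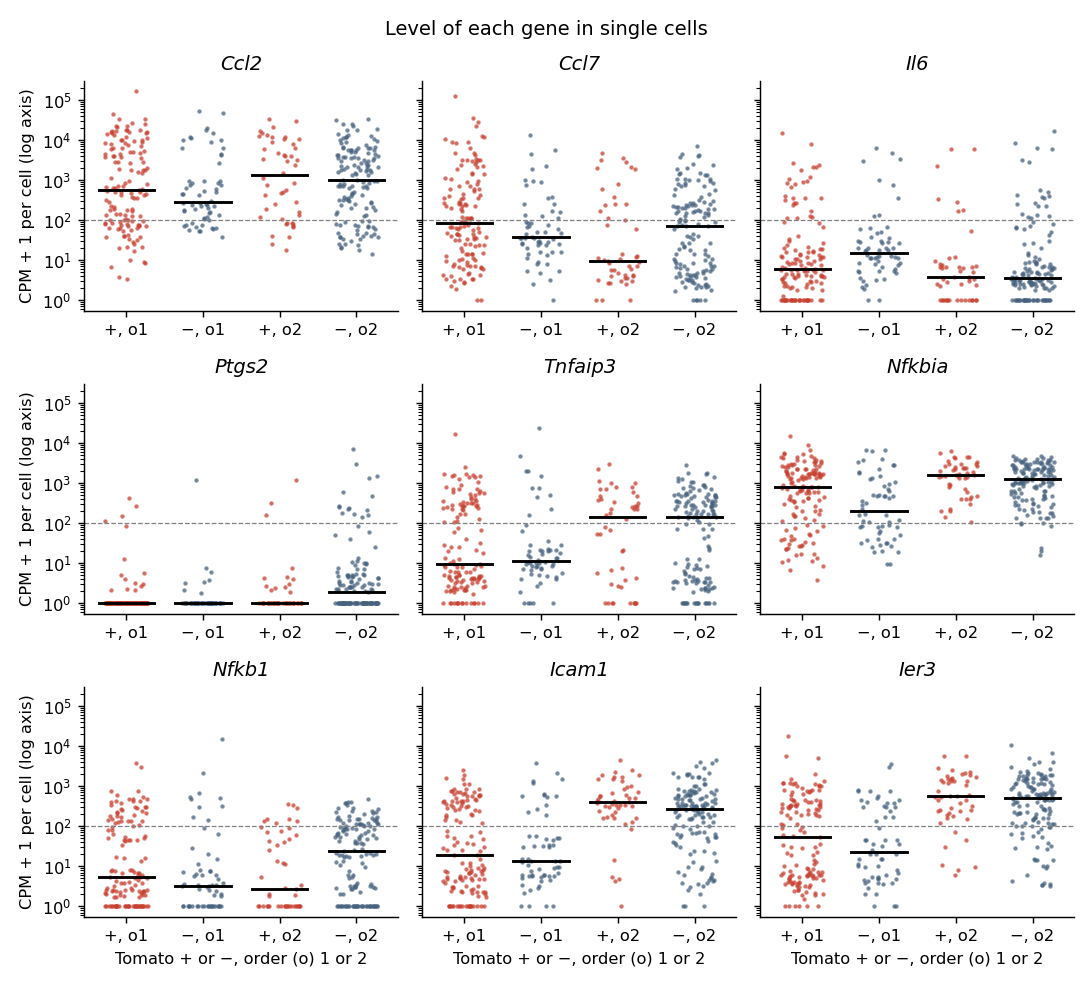
Level of each gene in the 386 kept cells, as CPM + 1 per cell (log axis), by group and order (o1, o2), with black bars at the medians and a dashed line at 100 CPM. Tnfaip3 splits into a low and a high cloud of cells in both groups, and Ptgs2 is at 0 in most cells.

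Il6 encodes interleukin 6, which acts on blood progenitors and on bone. In order 1 its level was 388 CPM in Tomato+ and 249.7 CPM in Tomato- cells. The order 2 levels were 285 and 303 CPM, so the orders gave opposite signs (log2 ratios of 0.64 and -0.09). Single sets decided these values: without Tomato+ set P1 the order 1 ratio was -3.00, and without Tomato- set N1 the order 2 ratio was 1.09, with which Il6 was called higher in Tomato+ cells. Few cells carried it: 100 CPM or more was reached by 34 Tomato+ cells (18.4%, exact 95% interval 13.1 to 24.7%) and 30 Tomato- cells (14.9%, 10.3 to 20.6%). These intervals, like those of the shares below, cover counting error over cells only and not differences between sets. The tenth of cells with the most counts held 92.7% of Il6 in Tomato+ and 96.04% in Tomato- cells. Among the title sets Il6 was low in Tomato+ set P3 of order 1, at 32.1 CPM, against 506 CPM in set P1 of the same order. The Tomato- cell of order 1 with the most Il6 counts, at 4826 CPM (the highest level in that group was 6302 CPM, in another cell), stood apart from the stromal profile: it had 69.7 CPM of Lepr and 60715 CPM of the pericyte and smooth muscle list, whose per-cell median in that group was 287 CPM. The same cell was also the top Tomato- cell of order 1 by Tnfaip3 counts. Among cells with Lepr at or above 1% of the highest Lepr count in their pool, the log2 ratio of Il6 was 2.63 in order 1 and -0.22 in order 2.

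Ptgs2 encodes COX-2, the inducible enzyme of prostaglandin synthesis. Tomato+ and Tomato- cells held 7.88 CPM (exact Poisson 95% interval 7.37 to 8.42) and 23.3 CPM (21.7 to 25.01) in order 1. They held 32.7 and 146.7 CPM in order 2, giving log2 ratios of -1.45 and -2.13. The sets overlapped, since Tomato+ set P1 of order 2 (62.01 CPM) stood above Tomato- set N2 of order 1 (23.3 CPM). The call rests on few cells: 100 CPM or more was reached by 7 Tomato+ cells (3.78%, exact 95% interval 1.53 to 7.64%) and 16 Tomato- cells (7.96%, 4.62 to 12.6%). A lone Tomato- cell of order 1 held 98.96% of that group's Ptgs2 counts. That cell had 87.95 CPM of Lepr and 49076 CPM of a Sca1+ fibroblast list, whose per-cell median in that group was 348 CPM. Without the top cell of each group and order, the order 1 ratio turned to 2.23, from 4.86 CPM in Tomato+ and 0.248 CPM in Tomato- cells, whereas order 2 kept its direction at -2.81 (11.4 and 86.1 CPM). Among cells with Lepr at or above 1% of the pool's highest count, order 1 gave 2.92 and order 2 gave -2.25. Under these settings the lower level in Tomato+ cells therefore held in order 2 and not in order 1. In order 2 a count of Ptgs2 was present in 27.1% of Tomato+ and 50.4% of Tomato- cells, beside 3 of the 12 cells with 5 or more Ptprc counts. With each cell thinned to 150000 counts these shares were 10.4% (exact 95% interval 3.47 to 22.7%) over 48 Tomato+ cells and 28.1% (20.8 to 36.5%) over the Tomato- cells of sufficient depth, which left out 6 of them.

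Of the inhibitors, Nfkbia encodes IkB alpha, which retains NF-kB in the cytoplasm. Of the 9 members it reached 100 CPM in the most cells, 83.2% of Tomato+ and 86.1% of Tomato- cells. Levels in order 1 were 1508 CPM in Tomato+ and 1119 CPM in Tomato- cells, and those in order 2 were 2061 and 1524 CPM. Its log2 ratios of 0.43 and 0.44 were alike in both orders and below the 1.5-fold limit, and the mean lay between 0.16 and 0.51 over all settings. Without Tomato+ set P1 the order 1 ratio turned to -0.11, where set P3 stood at 1125 CPM beside 1119 CPM in Tomato- set N2. The 5 Tomato+ sets (27.5 to 2307 CPM) overlapped the 3 Tomato- sets (1119 to 1615 CPM).

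Tnfaip3 encodes A20, an enzyme that edits ubiquitin chains and ends NF-kB signalling. Tomato+ cells held 279 CPM and Tomato- cells 347 CPM in order 1, against 359.8 and 275 CPM in order 2 (log2 ratios of -0.32 and 0.39). The sums differed by less than 1.5-fold in each order. Among cells with Lepr at or above 1% of the pool's highest count, the log2 ratios had the same sign, at 0.44 and 0.33. Over cells of order 1, however, the share with 100 CPM or more was 37.96% in Tomato+ (exact 95% interval 29.8 to 46.6%) and 18.3% in Tomato- cells (9.52 to 30.4%). The order 1 Tomato+ share came mostly from set P1 (48 of 94 cells). Set P3 gave 4 of 38 cells and set P2 gave 0 of 5. The intervals count cells as independent and do not cover this difference between sets. In order 2 the shares were 52.1% (37.2 to 66.7%) and 52.5% (43.9 to 60.95%). In order 1 the Tomato- sum rested more on single cells, with 23.5% of the counts in 1 cell against 12.46% in Tomato+ cells.

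Nfkb1 encodes the p105 precursor of the p50 subunit. Its order 1 levels were 120.2 CPM in Tomato+ and 132.9 CPM in Tomato- cells, and its order 2 levels were 44.4 and 68.2 CPM (log2 ratios of -0.14 and -0.61). A Tomato- cell of order 1, with 15339 CPM at a depth of 103721 counts, held 36.4% of its group's counts. Without the top cell of each group and order, the order 1 ratio of Nfkb1 was 0.21. Without Tomato+ set P1 it was -1.50, and Nfkb1 was then called lower in Tomato+ cells. Icam1, which encodes the adhesion molecule that leukocyte integrins bind, had 272 (Tomato+) and 335 CPM (Tomato-) in order 1, and 672 and 511 CPM in order 2, with log2 ratios of opposite sign (-0.30 and 0.39). Its values were not whole numbers in 8.91% of the cells with a count, so part of its reads was assigned in fractions, and the other 8 members had 0 such values. The top Icam1 cell of Tomato+ order 2 held 422 Pecam1 counts and 18603 CPM of the endothelial list, beside 5017 CPM of the marrow stroma list. Ier3, an immediate early gene of cell survival, had 369 and 230.1 CPM in order 1, and 1038 and 931 CPM in order 2, with log2 ratios of 0.68 and 0.16.

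**Figure D3:**
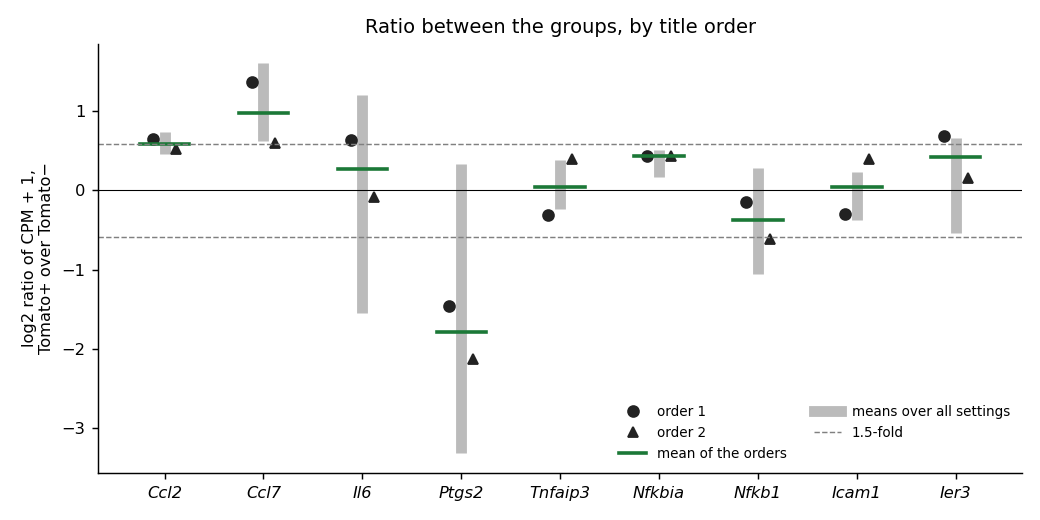
Log2 ratio of CPM + 1, Tomato+ over Tomato-, for each gene in order 1 (circle) and order 2 (triangle), with the mean of the orders (green bar) and the range of that mean over all settings (grey bar); dashed lines mark 1.5-fold. Ccl2, Ccl7 and Nfkbia have grey bars wholly above 0, and that of Ptgs2 spans -3.32 to 0.33.

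The title orders differed from each other in these genes. In both groups, Ptgs2, Icam1 and Ier3 were over 1.5-fold higher in order 2 than in order 1, and Ccl7 and Nfkb1 over 1.5-fold lower, which makes 5 of 9 members. In Tomato- cells the drops of Ccl7 and Nfkb1 rest on 1 cell of order 1 each. Without the top cell of each order, Tomato- levels were 404 CPM in order 1 and 352 CPM in order 2 for Ccl7, and 84.8 and 65.9 CPM for Nfkb1, both under 1.5-fold. The median Tomato- cell was higher in order 2 for both, at 71.3 against 35.7 CPM of Ccl7 and 23.3 against 2.27 CPM of Nfkb1. Among all 6292 genes tested in this comparison, 28.2% differed in both groups in 1 direction, and 12.3% were higher in order 2. Ier3 was higher by 1.49 on the log2 scale in Tomato+ and 2.01 in Tomato- cells, and Icam1 by 1.303 and 0.61. The number of members at 100 CPM or more in a cell had a median of 3 in both groups of order 1 and of 5 in both groups of order 2. Cells with 6 or more of the 9 made up 24.1% of Tomato+ and 8.33% of Tomato- cells in order 1, and 31.2% and 36.2% in order 2. No cell reached 100 CPM for all 9. What else differs between the orders is not stated, and it cannot be told apart from them.

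Co-expression between cells was described by Spearman correlation of log2(CPM + 1), with each cell centred on the mean of its title set. Cells share library pools and differ in depth, so these values are descriptions without p-values. The strongest pair was Ccl2 with Ccl7, at rho = 0.62 over the kept Tomato+ cells and 0.55 over the Tomato- cells. The value was at least 0.51 in each of the 4 combinations of group and order. It was 0.56 and 0.44 after counts below 1% of the pool maximum were set to 0. The relation was lopsided: of the 80 Tomato+ cells with 100 CPM or more of Ccl7, 76 also had that much Ccl2, and of the 80 such Tomato- cells, 77 did. Conversely 56.3% and 49.05% of the Ccl2 cells had that much Ccl7, while Ccl2 itself reached 100 CPM in 72.97% and 78.1% of all cells. The genes are neighbouring paralogs, and although 0 of their values were fractional, reads that they share cannot be told apart.

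A second group of pairs joined the inhibitors to the chemokine. Tnfaip3 with Nfkbia gave 0.42 in both groups, Ccl2 with Tnfaip3 gave 0.40 in Tomato+ and 0.38 in Tomato- cells, and Ccl2 with Nfkbia gave 0.40 and 0.37. Nfkbia gave 0.22 and 0.43 with Icam1, and 0.25 and 0.43 with Ier3. Of 36 pairs, 20 were above 0 in all 4 combinations of group and order. The same share was not computed over pairs of all genes, so this count is not read as a trait of the members. Ptgs2 lay between -0.08 and 0.16 with every other member. A count of it was present in only 15.1% of Tomato+ and 39.3% of Tomato- cells, so many of its ranks are tied. After counts below 1% of the pool maximum were set to 0, Ptgs2 with Il6 gave 0.25 in Tomato+ and 0.26 in Tomato- cells. The other Ptgs2 pairs then lay between -0.02 and 0.11. The median over the 36 pairs was 0.131 in Tomato+ and 0.169 in Tomato- cells, beside 0.0354 and 0.0391 over all pairs of 4818 genes. The difference between these group medians was below the SD over the 4 Tomato+ sets (0.0583) and slightly above that over the 3 Tomato- sets (0.0371). In Tomato+ cells of order 2 alone (48 cells) the median was 0.0425. Some members also varied with depth. The rank correlation with a cell's total count lay between -0.32 (Il6 in Tomato- cells) and 0.12 (Nfkbia in Tomato+ cells), and that with its number of detected genes between -0.22 (Ccl2 in Tomato- cells) and 0.08 (Nfkb1 in Tomato- cells).

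**Figure D4:**
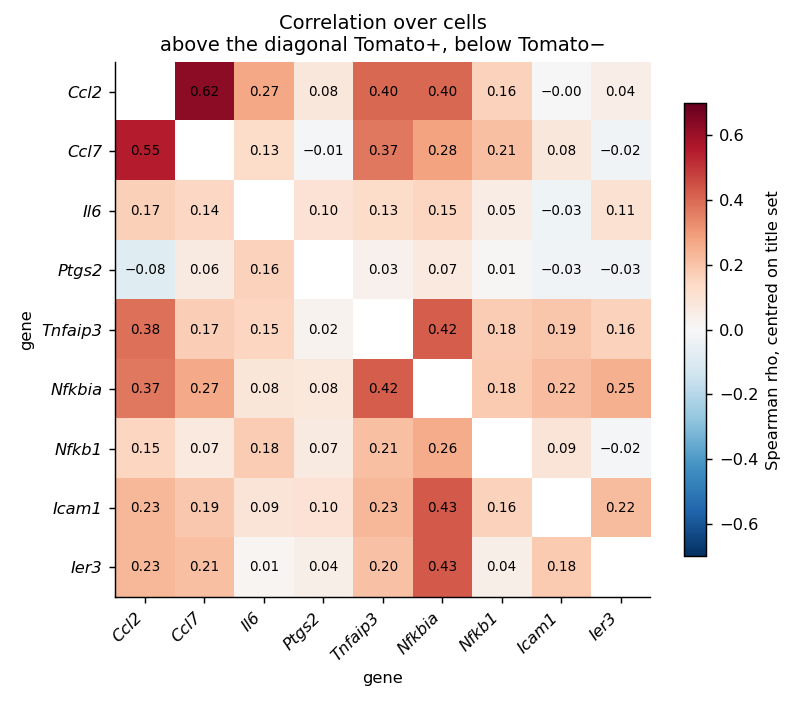
Spearman correlation over cells for the 36 pairs of genes, Tomato+ cells above the diagonal and Tomato- cells below it, from log2(CPM + 1) centred on the title set (colour scale from -0.7 to 0.7). The Ccl2 and Ccl7 pair is the darkest on both sides of the diagonal, at 0.62 and 0.55, and the row and column of Ptgs2 are pale.

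Genes outside the list that vary most like the 9 over cells were found by a measure called likeness. It is the smallest of the 4 Spearman correlations, in each group and order, between a gene and the mean of the 9 members' scaled values. Across 4651 genes the median likeness was -0.139, and 0.817% reached 0.2. The 12 highest were Ifrd1 (0.49), Kdm6b (0.44), Irf1 (0.43), Fosb (0.41), Vasn (0.40), Gadd45b (0.40), Nfkbiz (0.36), Myc (0.36), Lmna (0.36), Zfp36 (0.35), Neat1 (0.34) and Srsf2 (0.33). Several are well known early response genes: Fosb and Myc encode transcription factors, Nfkbiz an IkB family protein, and Zfp36 encodes TTP, which speeds the decay of AU-rich mRNAs. Against single members, Ifrd1 was the closest gene outside the list to Ccl2 (0.46), Ccl7 (0.33) and Nfkb1 (0.24), Zfp36 to Nfkbia (0.46), and Junb to Ier3 (0.29) and Icam1 (0.18). The closest to Ptgs2 was Igfbp5 at 0.16 and the closest to Il6 was Mt1 at 0.19, both weak.

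Likeness also differed between the pathway lists. Of 28 immediate early and stress genes with a value, 22 were above 0 and 8 reached 0.2, with a median of 0.10, whereas 8.84% of all genes were above 0. Of 17 other NF-kB target genes, 7 were above 0 and 4 reached 0.2, with a median of -0.02. The decay regulators had 4 of 7 above 0 (median 0.037), the inhibitors 2 of 10, the kinases and subunits 1 of 7 and the receptors and adaptors 2 of 9. The marrow stroma markers had 3 of 19 above 0 and a median of -0.19. Early response and heat shock genes can be switched on while tissue is dissociated, and whether that took part in these values was not tested.

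**Figure D5:**
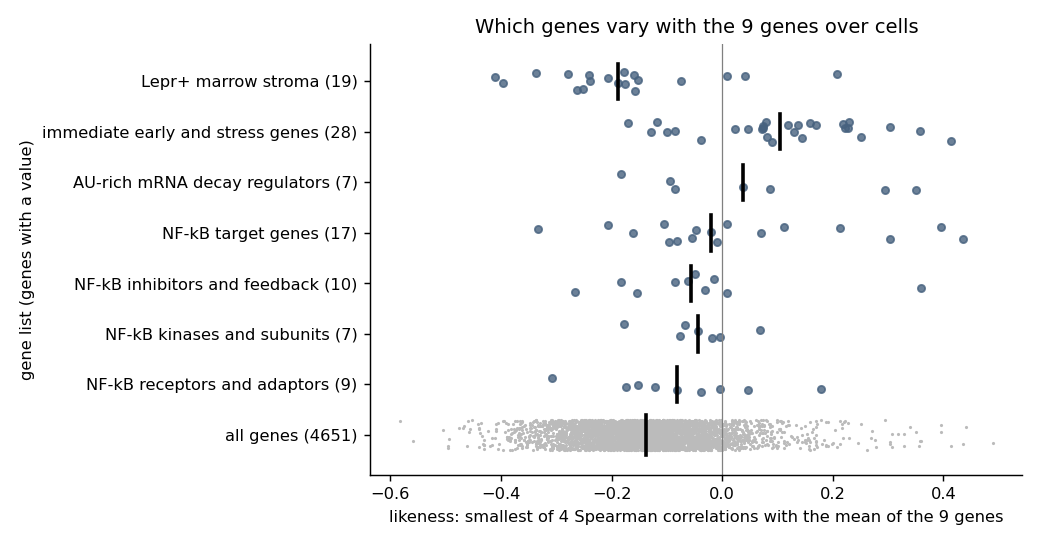
Likeness of each gene to the 9 members over cells (x axis, smallest of 4 Spearman correlations) for all 4651 genes (grey) and for 7 gene lists (blue), with black bars at the medians. The immediate early and stress genes lie furthest right by median, at 0.10, and the marrow stroma markers furthest left, at -0.19.

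In the rest of the pathway, the calls of each list stand beside 2.81% of all genes tested called higher and 3.99% called lower. Of the receptors and adaptors, 0 of 15 genes tested were higher in Tomato+ cells and 1 was lower, Tab2, which links receptors to the kinase TAK1, with log2 ratios of -2.13 and -1.26. Tnfrsf1a, the main TNF receptor, stood between 195.2 and 436 CPM and Il1r1, the interleukin 1 receptor, between 280 and 381 CPM in the 4 combinations of group and order. None of 8 kinases and subunits was called: Rela, the p65 subunit, had log2 ratios of 1.54 in order 1 and -0.57 in order 2. No call was made among 11 inhibitors and feedback genes either, where Nfkbiz had 1.299 and 0.23. Of 18 other target genes tested, 2 were higher and 0 lower: Gadd45b, a stress response gene, with log2 ratios of 1.31 and 0.63, and Il15, a cytokine of natural killer and T cells, with 0.70 and 1.13. Vcam1, the adhesion molecule of marrow stroma, was the most abundant of that list at 4298 to 6782 CPM, with log2 ratios of 0.51 and 0.42. The call rule gave 0 of 27 immediate early genes and 0 of 6 decay regulators. Between orders, 9 of the 27 early genes were over 1.5-fold higher in order 2 than in order 1 in both groups, among them Junb, Fosb and Nr4a1, and 0 were lower, beside 12.3% of all genes higher in order 2.

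Genes that act on or with the members' products were mostly low. Of 5 tested among the interleukin 6 receptor, prostaglandin and ICAM1 partners, 0 were called. Il6st, the shared signalling receptor gp130, stood between 241 and 397 CPM. Ptger4, a prostaglandin E2 receptor, stood between 61.8 and 122.7 CPM.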

How the data were processed

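Each sample is 1 cell. The deposited values are expected counts per gene, estimates that need not be whole, per the file headers; 4.91% of values above 0 were not whole. The submitters' processing notes list HISAT, HTSeq 0.6.0, StringTie 1.3.3b and GRCm38 without their roles. RNA was amplified before library preparation, per the labels' protocols, with no molecular identifiers mentioned, so intervals cover counting error only. Counts were rounded, and cells were kept from 1000 genes and 10000 counts upward. Groups came from the labels (187 Tomato+ and 201 Tomato- cells) and orders from column names.

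Counts were summed per group and order and scaled to CPM; ratios are of CPM + 1 and understate changes of low genes. Shares carry exact Clopper-Pearson 95% intervals, which count cells as independent and leave out differences between sets or animals. Pools are library codes in order 1 (12, of which 7 hold both groups) and, as an assumption, set numbers in order 2. Alternatives used edgeR 4.0.16 and DESeq2 1.42.0 scaling factors only; other steps used Python 3.11.15 and scipy 1.17.1. Ratio and correlation steps were tested on simulated data. For the ratio step each simulated gene had the same rate in all cells of a group. Genes whose counts sit in single cells, such as Ptgs2, were therefore not covered. Coordinates are from GENCODE M21. All 9 members were named, with up to 4 genes of highest level per list, called genes, and the first 12 by likeness (3 per member). Members and lists were chosen with earlier results of these data known.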

Additional observations from a re-analysis of the deposited data

Results flagged for a closer look

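Tnfaip3 had log2 ratios of opposite sign in the 2 title orders. In order 1 each of the 3 Tomato+ sets lay below the Tomato- set (log2 ratio -0.32), and in order 2 both Tomato+ sets lay above both Tomato- sets (log2 ratio 0.39). The difference between the orders was not tested. Single cells bear on it: the Tomato- set of order 1 stood at 270.2 CPM without its top cell, below the 303 CPM of Tomato+ set P1, and without the top cell of each group and order the ratios were -0.14 and 0.04. Among cells with Lepr at or above 1% of the pool's highest count they were 0.44 and 0.33, of the same sign.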

How the results depend on the processing

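The 2 member calls (Ccl7 higher, Ptgs2 lower) were made by TMM and DESeq2 scaling, by both other pseudocounts, without the filters on genes or cells, at a higher minimum depth per cell and without Ptprc or Pecam1 cells. With the mean of per-cell CPM 1 member was called (Ptgs2), with pool-cleaned counts 1 (Ccl7; Ptgs2 had log2 ratios of -1.45 and -2.14 but a count in only 8.46% of Tomato- cells), for ratios inside shared pools 1 (Ptgs2), and with each gene's top cells left out 0. Among cells with Lepr at or above 1% of the pool maximum, an alternative chosen after seeing the data, 0 were called and the mean log2 ratio of Ptgs2 turned to 0.33. Leaving out 1 title set gave 1 to 3 member calls and 6.88 to 9.68% of genes tested called. Against 6.80% called, no filter on low genes gave 12.53% and summing the orders (1 ratio only) 29.3%. Ratios within pools that hold both groups gave 2.27%, where 3 ratios had to pass and not 2. The median member correlation of Tomato+ cells was 0.0425 in order 2 alone and 0.0572 to 0.177 with 1 title set left out; it rested in part on set P1 of order 1. Why these values moved was not tested. Set N2 of order 1 was not left out, since it is the only Tomato- set of its order. Low genes, such as Ptgs2 in order 1 at 7.88 and 23.3 CPM, are limited by the number of cells that carry them. No paired analysis was possible because each group counts as 1 sample and the labels do not say that set numbers pair cells; the ratios within pools, above, compare the groups inside shared library codes or, in order 2, equal set numbers.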

Other observations

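Other CC chemokines and their receptors were sparse in these cells. Of 19 other CC chemokine genes, 11 had a count and 2 were tested: Ccl9 was called higher in Tomato+ cells, at 115.2 and 15.5 CPM (Tomato+ and Tomato-) for order 1 and 122.1 and 59.1 CPM for order 2, which are log2 ratios of 2.82 and 1.03, and Ccl19 was not called (-0.51 and -0.19). In Tomato- cells of order 1, 58.9% of the Ccl9 counts came from 1 cell. Of 14 CC chemokine receptors, 12 had a count and 2 were tested, with 0 called. Ackr4, a scavenging receptor, had 308 and 305 CPM in order 1, and 112.5 and 64.6 CPM in order 2. Ackr1, a chemokine-binding receptor of venous endothelium, stood at 41.8 CPM in Tomato+ and 0.091 CPM in Tomato- cells of order 1, with 84.1% of the Tomato+ counts in 1 cell.

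The 2 most extreme values of the chemokines lay in different Tomato+ cells of order 1. Ccl2 reached 162327 CPM in a cell of set P3 with 31018 CPM of the marrow stroma list, and Ccl7 reached 128117 CPM in a cell of set P2 with 17653 CPM of that list. The per-cell median of the list in Tomato+ cells of order 1 was 81978 CPM.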
